A study of Mus musculus with 8 samples.

Results

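Wnt signalling genes were examined in mammary epithelium at pregnancy day 14.5, as 52 protein-coding genes among the 55933 genes of the expression table. They were chosen by name and not by any measured value, and comprised 19 Wnt ligands, 12 receptors (10 Frizzled genes, Lrp5 and Lrp6), 9 secreted antagonists (Sfrp, Dkk and Wif1 genes), 9 genes of the R-spondin axis (Rspo1 to Rspo4, Lgr4 to Lgr6, Znrf3 and Rnf43), and Tcf7, Lef1 and Axin2. RNA came from 4 control mice, labelled WT, and from 4 conditional knockout (cKO) mice carrying K14-rtTA, teto-Cre and Bmpr1a fl/fl, all on C57BL/6 and all pregnant. In the cKO mice the keratin 14 promoter drives the transactivator rtTA, which with doxycycline from the drinking water turns on Cre from the teto promoter, so the deletion of Bmpr1a, a type I receptor for bone morphogenetic proteins, is confined by design to keratin 14-positive cells. The controls were littermates whose alleles and doxycycline treatment were not given in the sources used here. Glands were digested to cells without sorting, so each library holds RNA of all the cell types that remained, and fewer cells of a type cannot be told apart from less RNA per cell.

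Wnt proteins are secreted lipid-modified ligands that bind Frizzled receptors and, for signalling through beta-catenin, the co-receptors Lrp5 and Lrp6. R-spondins bind Lgr receptors and keep the ubiquitin ligases Znrf3 and Rnf43 from removing Frizzled from the cell surface. Sfrp proteins and Wif1 bind Wnt ligands outside the cell, and the Dkk1, Dkk2 and Dkk4 proteins act on the Lrp co-receptors. In the mammary gland Wnt4 is known as a ligand made by hormone-sensing luminal cells under progesterone, Rspo1 as its luminal partner, and Axin2 as a widely used target gene of beta-catenin signalling.

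Each library held between 16123108 and 19896988 reads on genes. Levels are given as FPKM, fragment counts divided by gene length and scaled for library depth, which can be compared between genes. A gene was tested where its mean over the 8 libraries was at least 0.5 FPKM. Differences are of log2(FPKM + 1), cKO minus control, fitted with limma over 15143 genes and adjusted by the Benjamini-Hochberg method. The added 1 understates the differences of low genes. Bmpr1a itself was at 8.74 to 11.7 FPKM in the controls and at 10.2 to 12.0 FPKM in the libraries labelled cKO, so its level over the whole gene did not mark the deletion and directions rest on the labels. Summed FPKM of 9 secretory alveolar markers was 4320 to 6530 in the controls and 10500 to 19000 in the cKO libraries, and that of 8 hormone-sensing luminal markers was 36.3 to 53.4 against 27.9 to 35.2. Without Cited1, the 1 marker of the latter list that was called (limma adjusted p = 0.0268), the hormone-sensing sums overlapped at 27.4 to 40.9 against 24.5 to 29.6. With Cited1 counted, 4 of the 7 tested markers of that list were below 0. The sum of 11 basal and myoepithelial markers overlapped between the groups, at 2040 to 2790 against 1870 to 2590. Of these 11, Trp63 and Krt14 were lower (unadjusted p of 0.014 and 0.0198 in limma), Oxtr, the oxytocin receptor, was higher without overlap at 4.0 to 7.24 against 2.14 to 2.86 FPKM (unadjusted p of 0.000893, adjusted p of 0.0644), and 4 of the 11 log2 differences were below 0. With a term for replicates 1 and 2 against 3 and 4, limma gave adjusted p of 0.0187 for Krt14, 0.0456 for Trp63 and 0.0498 for Krt17, and Oxtr had 0.0576. This term was defined from correlations in these same data, and its fit called 442 genes in all against 135 without it. Without the term, limma adjusted p was 0.209 for Krt14, 0.181 for Trp63 and 0.32 for Krt17. Limma-voom on recovered reads gave 0.141, 0.124 and 0.251 for these genes and 0.0377 for Oxtr. No marker on these 3 lists was at 0 in all libraries, and their part in the differences below was not tested.

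Rspo1 and Wnt5b stood highest among the 52 genes, at means over the 8 libraries of 31.9 and 29.7 FPKM. Of the 52 genes, 6 had a mean of at least 10 FPKM (Rspo1, Wnt5b, Fzd7, Tcf7, Lrp6 and Fzd1), 21 lay between 1 and 10 FPKM, 5 lay between 0.5 and 1 FPKM, and 20 were under 0.5 FPKM and so were not tested. Wnt3 and Dkk4 had no read in any library. Wnt5b made up 52.6% of the summed FPKM of the ligands and Rspo1 66.3% of that of the R-spondin axis. The leading receptor, Fzd7, made up 26.6% of its class and the leading antagonist, Sfrp2, 33.0%. The other R-spondins (Rspo2, Rspo3 and Rspo4) all had means under 0.1 FPKM.

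**Figure D1:**
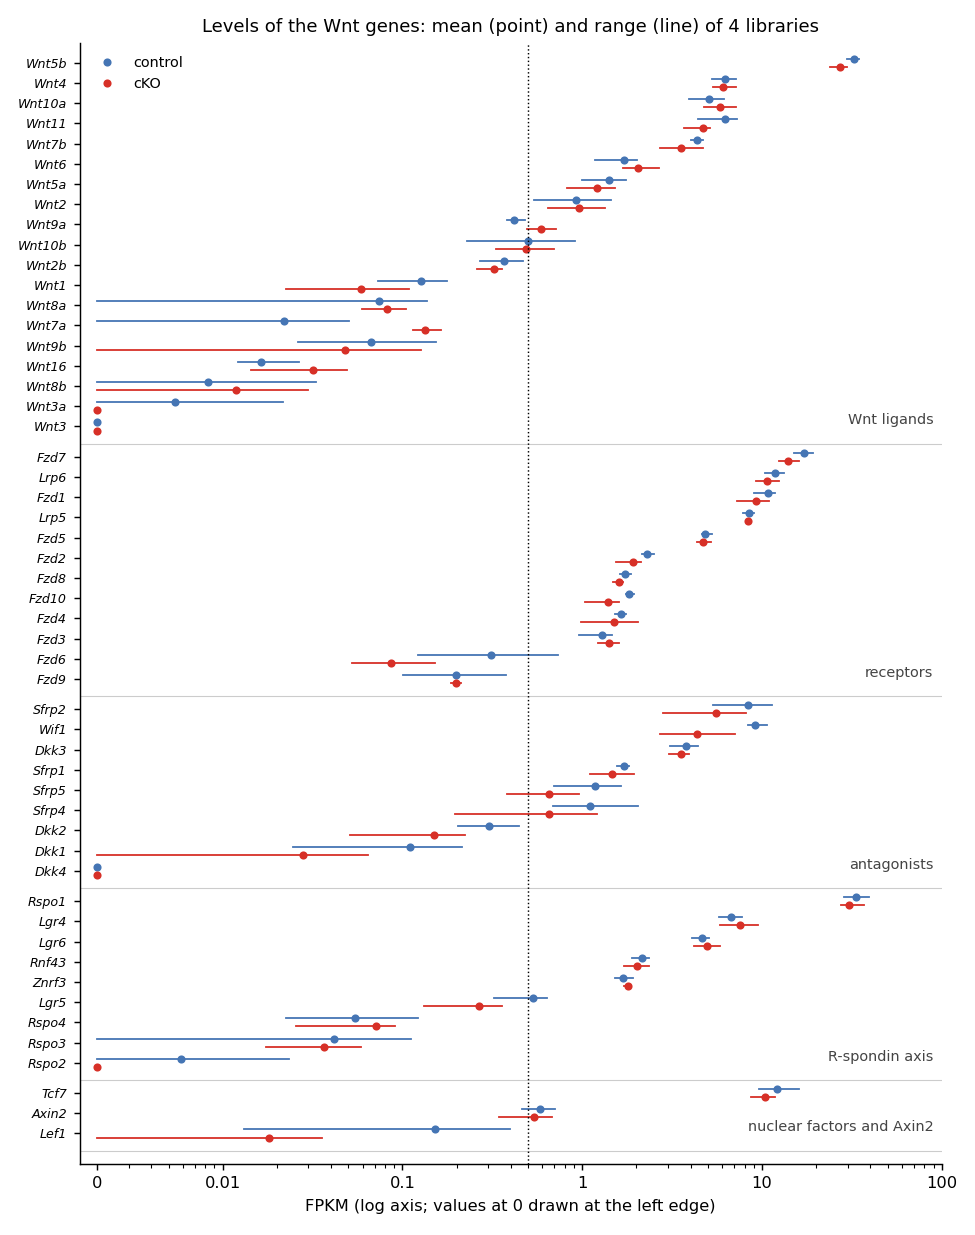
FPKM of the 52 Wnt genes on a log axis, by class and in order of their mean, with the mean (point) and the range (line) of the 4 control and the 4 cKO libraries; the dotted line marks the 0.5 FPKM filter and values at 0 are drawn at the left edge. Wnt5b and Rspo1 lie near 30 FPKM in both groups, and Wif1, Wnt5b, Fzd10 and Fzd2 are the tested genes whose lines lie apart with cKO lower.

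The Wnt genes were compared between cKO and control to ask whether deletion of Bmpr1a in the basal layer went with a difference in their expression. None of the 32 tested genes passed an adjusted p of 0.05 in limma, where 0.892% of all tested genes did. At an unadjusted p under 0.05, 5 were lower in cKO (Wif1, Wnt5b, Fzd7, Fzd10 and Sfrp5) and 0 were higher, which is 15.6% of the 32 lower against 7.53% of all tested genes lower and 8.85% higher; in either direction the shares were 15.6% of the 32 and 16.4% of all tested genes. Limma-voom on recovered reads called 1 gene, Wif1, after adjustment, in a fit that called 252 genes in all against 135 in limma. Scaling to TPM, in which every library has the same summed level, turned the split over all genes from 1340 higher and 1140 lower at an unadjusted p under 0.05 to 788 higher and 1656 lower. It gave 7 lower and 0 higher Wnt genes, or 21.9% of the 32 beside 16.1% of all tested genes in either direction. The groups did not overlap, with cKO lower, for 4 of the 32 (Wif1, Wnt5b, Fzd10 and Fzd2), or 12.5% against 4.6% of all tested genes, and with cKO higher for 1 (Wnt9a), where the share of all tested genes was 6.1%. The median difference of the 32 was -0.10 on the log2(FPKM + 1) scale and 24 of them, 75.0%, were below 0, against a median of 0.00 and 49.8% below 0 over all tested genes.

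**Figure D2:**
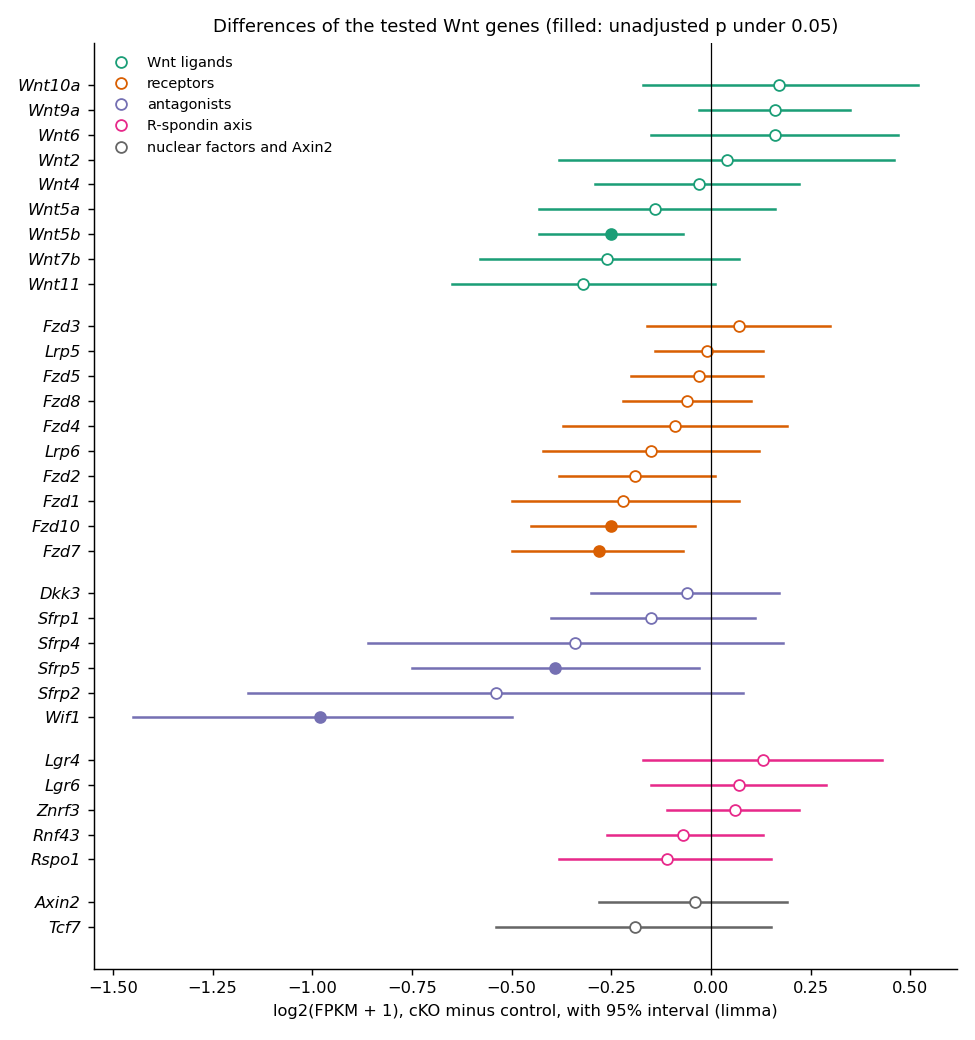
Difference of log2(FPKM + 1), cKO minus control, of the 32 tested Wnt genes with its 95% interval from limma, coloured by class; filled points have an unadjusted p under 0.05. All 6 antagonists and 9 of 10 receptors lie below 0, the R-spondin axis lies on both sides, and the interval of Wif1 runs from -1.45 to -0.50.

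Among the secreted antagonists, Wif1, the Wnt inhibitory factor that binds Wnt ligands directly, had the largest difference of the 32 tested genes. Its levels were 8.68, 10.7, 8.88 and 8.34 FPKM in control libraries 1 to 4 and 7.11, 3.60, 4.0 and 2.71 FPKM in cKO libraries 1 to 4. Every cKO library lay below every control library, with cKO 1 closest to the controls. The cKO mean was 4.35 ± 1.91 FPKM (SD, n = 4), 47.6% of the control mean of 9.14 ± 1.04 FPKM (SD, n = 4), on 122 to 448 reads a library. The log2 difference was -0.98 with a standard error of 0.21 (limma, adjusted p = 0.0722). Taken separately, replicates 1 and 2 gave -0.80 and replicates 3 and 4 gave -1.16. The limma adjusted p was 0.0118 without cKO replicate 1 and 0.0407 where protein-coding genes alone were fitted. It was 0.0428 with a term for replicates 1 and 2 against 3 and 4, which was defined from these data. Limma-voom gave 0.0374, and 0.035 with a replicate block. In the other alternatives the adjusted p lay between 0.0644 and 0.347. Among them were 0.0808 in limma with the replicate block and 0.111 to 0.156 with any other single library left out. Wif1 lies at chr10:121033960-121100650 (GRCm38, plus strand).

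Sfrp2 and Sfrp5 encode secreted Frizzled-related proteins, which carry a Frizzled-like domain and bind Wnt ligands. Sfrp5 was at 1.03, 0.699, 1.32 and 1.65 FPKM in the controls and at 0.709, 0.383, 0.961 and 0.567 FPKM in the cKO libraries, on 12 to 59 reads. The groups overlapped, control 2 lying below cKO 1 and cKO 3 (log2 difference -0.39, SE 0.16, limma adjusted p = 0.269). Sfrp2, the antagonist with the highest mean, was at 5.36, 8.63, 7.98 and 11.3 FPKM in the controls and at 8.18, 5.52, 2.81 and 5.70 FPKM in the cKO libraries. Its groups overlapped widely and its log2 difference was -0.02 in replicates 1 and 2 and -1.06 in replicates 3 and 4 (pooled 95% interval -1.16 to 0.08, limma adjusted p = 0.374). Sfrp1 was at 1.57 to 1.83 FPKM in the controls and at 1.11 to 1.94 FPKM in the cKO libraries, with a 95% interval of the log2 difference from -0.40 to 0.11. The median of the 6 tested antagonists was -0.36 and all 6 were below 0, of which 2, Wif1 and Sfrp5, had an unadjusted p under 0.05, where over all tested genes 49.8% were below 0 and 7.53% were lower at that p. All 7 fibroblast, 6 endothelial and 4 tested pericyte markers were below 0 as well, with medians of -0.42, -0.21 and -0.12, and their part in the antagonists' levels was not tested.

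**Figure D3:**
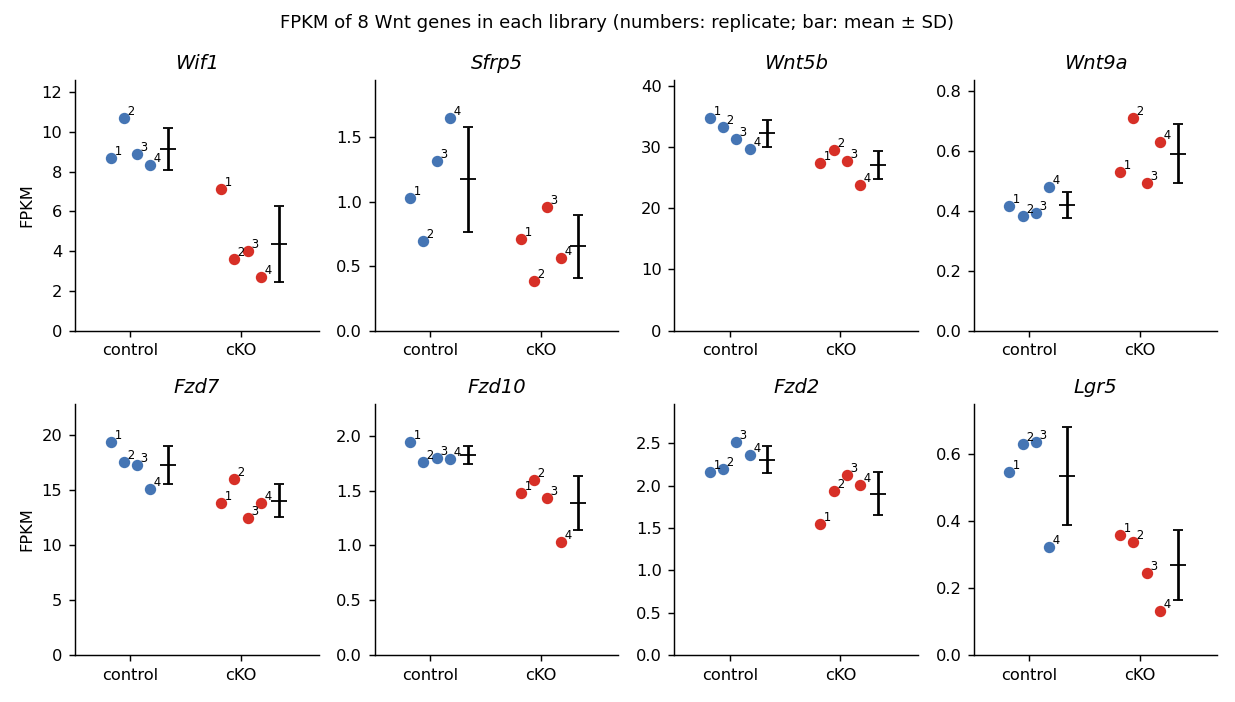
FPKM of 8 Wnt genes in each control and cKO library, with the replicate number beside each point and the mean ± SD of 4 libraries as a bar; every axis starts at 0. Wif1 has a control mean of 9.14 and a cKO mean of 4.35 FPKM without overlap, while the groups of Fzd7, Sfrp5 and Lgr5 overlap.

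Wnt5b, a ligand best known for signalling without beta-catenin, was lower in every cKO library than in any control. It was at 34.8, 33.4, 31.3 and 29.8 FPKM in the controls and at 27.4, 29.5, 27.7 and 23.9 FPKM in the cKO libraries. The gap was narrow, control 4 and cKO 2 lying within 1 FPKM of each other. The cKO mean of 27.1 ± 2.31 FPKM (SD, n = 4) was 83.8% of the control mean of 32.4 ± 2.21 FPKM (SD, n = 4), with a log2 difference of -0.25 (SE 0.08, limma adjusted p = 0.173). The adjusted p was 0.0897 in limma with the replicate block and 0.066 with the term for replicates 1 and 2 against 3 and 4. Limma-voom gave 0.157, and 0.0547 with the replicate block. Wnt5b lies at chr6:119432531-119544347 (GRCm38, minus strand) and had at least 1166 reads in every library. The summed FPKM of all 19 ligands did not overlap between the groups either, at 58.5 to 61.1 in the controls and 51.4 to 55.2 in the cKO libraries, of which Wnt5b was the largest part. Without Wnt5b the ligand sums overlapped, at 23.7 to 31.0 against 24.1 to 28.6, and so did the sums of the other 4 classes with all their genes.

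Wnt4, the progesterone-responsive ligand of luminal cells, did not separate the groups. It was at 5.26, 5.68, 6.76 and 7.20 FPKM in the controls and at 5.31, 5.57, 6.16 and 7.15 FPKM in the cKO libraries, nearly the same range. In both groups replicates 3 and 4 were above replicates 1 and 2. The 95% interval of the log2 difference ran from -0.29 to 0.22. The intervals of the tested ligands other than Wnt5b held 0 as well, from Wnt11 at -0.65 to 0.01 to Wnt10a at -0.17 to 0.52. Wnt11 had an adjusted p of 0.322 in limma, 0.0984 in limma with the replicate block, 0.168 with the set term and 0.051 in limma-voom with the replicate block.

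Wnt9a was the tested ligand that was higher in every cKO library. It was at 0.416, 0.382, 0.394 and 0.480 FPKM in the controls and at 0.529, 0.710, 0.492 and 0.631 FPKM in the cKO libraries, on 22 to 39 reads a library. Control 4 lay just below cKO 3 and the log2 difference was 0.16 (SE 0.08, limma adjusted p = 0.375). Wnt9a passed the 0.5 FPKM filter only through its cKO libraries, with a control mean of 0.418 and a cKO mean of 0.590 FPKM, so its being tested and counted is no support for a difference, and without cKO 2 or cKO 4 it was not tested. Wnt7a, which was not tested, had 5 reads in the 4 controls together and 30 in the 4 cKO libraries, at 0, 0, 0.0376 and 0.0504 FPKM against 0.163, 0.115, 0.139 and 0.119 FPKM. These groups did not overlap either, for which the gene was named, at a depth of at most 10 reads a library. The 8 other ligands under the filter and above 0 (Wnt10b, Wnt2b, Wnt1, Wnt8a, Wnt9b, Wnt16, Wnt8b and Wnt3a) all overlapped.

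Among the receptors, Fzd7, a Frizzled gene linked to mammary stem cells, had the highest mean. It was at 19.3, 17.5, 17.2 and 15.1 FPKM in the controls and at 13.8, 16.0, 12.4 and 13.8 FPKM in the cKO libraries. The groups overlapped through control 4 and cKO 2 alone. The cKO mean was 81.2% of the control mean, with a log2 difference of -0.28 (SE 0.09, limma adjusted p = 0.187), and replicates 1 and 2 gave -0.29 where replicates 3 and 4 gave -0.28. Fzd7 lies at chr1:59482424-59486955 (GRCm38, plus strand).

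Fzd10, expressed at a lower level, was at 1.94, 1.76, 1.80 and 1.79 FPKM in the controls and at 1.48, 1.60, 1.43 and 1.03 FPKM in the cKO libraries. All 4 cKO libraries were below all 4 controls, cKO 4 furthest, and the log2 difference was -0.25 (SE 0.09, limma adjusted p = 0.229). Fzd2 was at 2.16, 2.19, 2.51 and 2.36 FPKM in the controls and at 1.54, 1.94, 2.13 and 2.01 FPKM in the cKO libraries. These groups were also apart, cKO 3 lying just below control 1 (log2 difference -0.19, SE 0.09, limma adjusted p = 0.317). Fzd10 lies at chr5:128600844-128604093 and Fzd2 at chr11:102604396-102608058 (GRCm38, both on the plus strand).

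The co-receptor Lrp6 was at 10.4 to 13.3 FPKM in the controls and at 9.27 to 12.5 FPKM in the cKO libraries (95% interval of the log2 difference -0.42 to 0.12). Lrp5 gave the narrowest interval of the receptors, -0.14 to 0.13, at means of 8.45 ± 0.514 and 8.39 ± 0.213 FPKM (SD, n = 4 each). Of the 10 tested receptors 9 were below 0, with a median of -0.12, and 2 of them (Fzd7 and Fzd10) had an unadjusted p under 0.05, again beside 49.8% and 7.53% of all tested genes. Fzd6 and Fzd9 were under the filter.

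Promoter sequences from RefSeq (GRCm38.p6, 250 bases before to 50 after each annotated start) matched 34 of the 52 genes, with 42 promoters. They were searched on both strands for CTTTG followed by any pair of the letters A and T, the core bound by TCF and LEF factors, and for GGCGCC, a motif of BMP-responsive SMAD factors. The TCF and LEF letters were in 6 of the 42 promoters (14.3%) and in 16.9% of all 32851 promoters, and GGCGCC was in 15 of the 42 (35.7%) and in 11.9% of all. Of the 5 genes with an unadjusted p under 0.05, all had an entry, 7 promoters in all, of which 2 held the TCF and LEF letters and 1 held GGCGCC. The promoters of Wif1, which had the largest difference, and of Fzd7 and Fzd10, the receptors with an unadjusted p under 0.05, are shown with each match in capitals; all 3 are on the plus strand, at chr10:121033754-121034053, chr1:59481897-59482196 and chr5:128600856-128601155. Fzd7 held CTTTGTT on the opposite strand, starting 130 bases before the RefSeq start, Fzd10 held GGCGCC at 232 and 25 bases before it, and Wif1 held neither in this window.
Wif1: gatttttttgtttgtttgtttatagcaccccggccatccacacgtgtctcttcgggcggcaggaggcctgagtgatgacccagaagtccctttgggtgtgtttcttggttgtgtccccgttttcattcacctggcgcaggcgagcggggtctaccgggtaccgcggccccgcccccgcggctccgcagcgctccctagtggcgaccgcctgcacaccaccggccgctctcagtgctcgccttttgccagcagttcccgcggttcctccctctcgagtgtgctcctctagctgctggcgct
Fzd7: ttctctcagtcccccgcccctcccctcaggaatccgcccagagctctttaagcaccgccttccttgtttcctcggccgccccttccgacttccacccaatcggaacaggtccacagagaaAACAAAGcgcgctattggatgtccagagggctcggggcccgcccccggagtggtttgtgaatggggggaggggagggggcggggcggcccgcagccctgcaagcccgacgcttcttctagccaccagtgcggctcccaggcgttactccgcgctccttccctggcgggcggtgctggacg
Fzd10: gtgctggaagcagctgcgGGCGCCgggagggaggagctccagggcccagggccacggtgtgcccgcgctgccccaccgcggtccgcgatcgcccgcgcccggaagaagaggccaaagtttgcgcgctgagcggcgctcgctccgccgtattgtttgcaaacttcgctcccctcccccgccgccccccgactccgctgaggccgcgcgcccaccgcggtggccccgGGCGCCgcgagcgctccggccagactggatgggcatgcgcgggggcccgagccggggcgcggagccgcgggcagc

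In the R-spondin axis none of the 5 tested genes had an unadjusted p under 0.05 in limma or in limma-voom without a block, and the other 4 were under the filter. Rspo1 was at 28.6, 31.9, 39.1 and 32.9 FPKM in the controls and at 30.2, 27.9, 27.6 and 36.9 FPKM in the cKO libraries. The groups overlapped over most of their range, and the 95% interval of the log2 difference ran from -0.38 to 0.15. Lgr4, the most highly expressed R-spondin receptor of the 3, was at 6.73 ± 0.819 FPKM in the controls and 7.52 ± 1.52 FPKM in the cKO libraries (SD, n = 4 each; 95% interval -0.17 to 0.43). Znrf3 and Rnf43, the ligases that take Frizzled off the membrane, gave intervals of -0.11 to 0.22 and -0.26 to 0.13. Rspo1 lies at chr4:124986430-125009099 (GRCm38, plus strand).

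Lgr5, an R-spondin receptor that marks stem cells in several epithelia, was under the filter. It was at 0.545, 0.630, 0.634 and 0.322 FPKM in the controls and at 0.358, 0.337, 0.245 and 0.131 FPKM in the cKO libraries. Control 4 lay among the cKO libraries and the other 3 controls lay above all of them. The cKO mean was 50.3% of the control mean, on 193 against 380 reads (exact two-sided permutation test, p = 0.0857). Fitted in limma with no filter, Lgr5 had an unadjusted p under 0.05 and no adjusted p under 0.05. The difference of means on the log2(FPKM + 1) scale was -0.24 for replicates 1 and 2 and -0.31 for replicates 3 and 4.

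Axin2, the feedback target of beta-catenin signalling, was at 0.618, 0.461, 0.705 and 0.542 FPKM in the controls and at 0.649, 0.484, 0.343 and 0.675 FPKM in the cKO libraries. Every cKO library but cKO 3, the lowest of the 8, lay within the control range. The 95% interval of its log2 difference was -0.28 to 0.19. Tcf7, a nuclear partner of beta-catenin that lymphocytes also express, was at 11.7, 11.3, 16.0 and 9.64 FPKM in the controls and at 9.37, 11.8, 11.8 and 8.66 FPKM in the cKO libraries. Control 3 was the highest and the groups overlapped (95% interval -0.54 to 0.15).

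Several Wnt genes were high in libraries where markers of other cell types were high, and these genes were picked after their values were seen. The summed FPKM of 7 fibroblast markers, led by the collagens Col3a1 and Col1a1, was highest in control 4, control 2 and cKO 1, at 991, 822 and 765, and between 316 and 548 in the other libraries. None of the 7 was at 0 in any library. Sfrp2 was highest in the same 3 libraries, at 11.3, 8.63 and 8.18 FPKM, but was nearly as high, at 7.98 FPKM, in control 3, whose fibroblast sum was 470, and at 5.52 FPKM in cKO 2, whose sum was 455. Wnt2, a ligand of stromal cells, was at 1.44, 1.15 and 1.33 FPKM in those 3 and at 1.19 FPKM in cKO 4, and lay between 0.537 and 0.672 FPKM in the other 4. Sfrp4 and Wnt10b were highest in control 4, at 2.04 and 0.909 FPKM. The part of fibroblast RNA in these levels was not tested.

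A B cell marker stood apart in control 3 and control 1. Cd79a, a part of the B cell receptor, was at 14.0 and 6.06 FPKM there and at 0.692 to 2.02 FPKM in the other 6 libraries. The summed FPKM of 6 immune markers was 160 to 231 in the controls and 91.5 to 165 in the cKO libraries. Lyz2 made up most of this sum, at 136 to 210 FPKM in the controls and 84.2 to 152 FPKM in the cKO libraries. The sum was 163 in control 3, where Cd79a was highest. Of the 5 immune markers tested, 3 were lower at an unadjusted p under 0.05 in limma, beside 7.53% of all tested genes. None of the 6 was at 0 in any library. Lef1, a relative of Tcf7 that early lymphocytes express, was at 0.394 and 0.177 FPKM in control 3 and control 1 and at 0 to 0.0358 FPKM in the other 6. Fzd6 was at 0.731 FPKM in control 1 and at most 0.252 FPKM elsewhere. With control libraries 1 and 3 left out, a choice made after seeing the data, 2 Wnt genes had an unadjusted p under 0.05 in limma, Wif1 (log2 difference -1.03) and Sfrp2. These were 6.06% of the Wnt genes tested, beside 10.2% of all genes in that fit. None of the Wnt genes had an adjusted p under 0.05, in a fit that called 2 genes in all after adjustment against 135 with all libraries. The part of immune cell RNA in these levels was not tested.

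**Figure D4:**
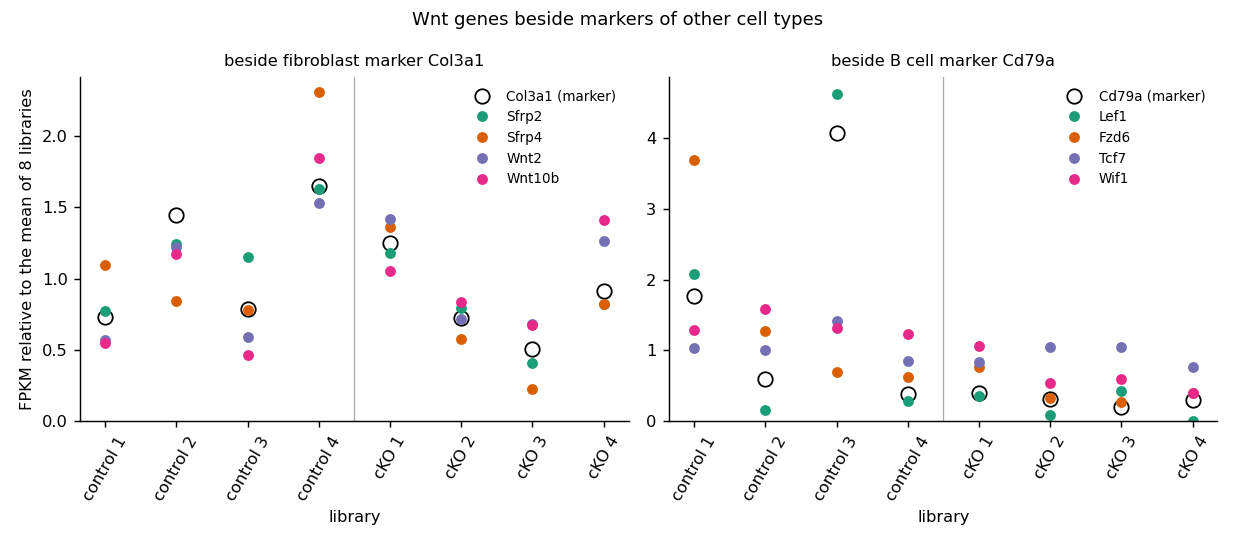
FPKM of 8 Wnt genes in each library relative to their mean over the 8 libraries, beside the fibroblast marker Col3a1 (left) and the B cell marker Cd79a (right), which are drawn as open circles. Sfrp2, Wnt2 and Wnt10b are high with Col3a1 in control 4, and Lef1 is high with Cd79a in control 3 and control 1, while Wif1 is above its mean in all 4 controls and in cKO 1.

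The rest of the pathway was read from 4 lists of 72 genes, of which 59 were tested. None passed an adjusted p of 0.05 in limma or in limma-voom, both without a block. At an unadjusted p under 0.05, 5 were lower in cKO (8.47% of the 59, against 7.53% of all tested genes) and 2 were higher, and the median difference was -0.01 on the log2(FPKM + 1) scale. Gpc4, a glypican that holds ligands at the cell surface, was at 18.6, 18.5, 18.3 and 20.4 FPKM in the controls and at 20.8, 22.0, 21.4 and 23.3 FPKM in the cKO libraries. Every cKO library was above every control (log2 difference 0.20, SE 0.06, limma adjusted p = 0.171). Gpc6, another glypican, gave a 95% interval of -0.66 to 0.02.

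Among 15 tested genes of alternative receptors and planar polarity, 3 were lower at an unadjusted p under 0.05 and 0 higher in limma, beside 7.53% lower and 8.85% higher of all tested genes. Scrib and Celsr1, both of the planar polarity machinery, had log2 differences of -0.14 and -0.21 (limma adjusted p = 0.273 and 0.288). Of 30 tested cytoplasmic and nuclear genes, Tle1, a co-repressor, was lower at -0.18 and Bcl9, a co-activator of beta-catenin, higher at 0.31 (limma adjusted p = 0.269 and 0.286). Of 6 tested feedback and target genes, Cd44 had a log2 difference of -0.28, with 59.0 to 70.7 FPKM in the controls and 46.5 to 59.0 FPKM in the cKO libraries (limma adjusted p = 0.187). Its adjusted p was 0.0841 in limma with the replicate block and 0.0347 in limma-voom with the replicate block. With the set block (replicates 1 and 2 against 3 and 4), which was defined from these data, it was 0.0377 in limma. Myc had a 95% interval of -0.26 to 0.07.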

How the data were processed

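RNA-seq of unsorted mammary epithelium from 4 control and 4 cKO mice was analysed from the deposited gene table. The deposited values are FPKM per gene. According to the methods of the study the authors aligned reads with Hisat2 to GRCm38; the submitters' processing notes list StringTie 1.3.3b, featureCounts 1.5.0-p3 and build mm9 with no role. The 55480 gene identifiers shared with GENCODE M21 had the same GRCm38 coordinates for 99.68%, including all 52 Wnt genes, so GRCm38 was used. Times gene length, the FPKM of each library were whole multiples of 1 step for 100% of values (tolerance 0.01 of a read), and the recovered reads gave depth and the voom alternative. The FPKM carried median-of-ratios scaling, so their sum differs between libraries.

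The main test was limma 3.58.1 (R 4.3.3) on log2(FPKM + 1) with an empirical Bayes trend over 15143 genes with a mean of at least 0.5 FPKM. The fit was tested on simulated data. Exact permutation tests were two-sided and cannot go below p = 0.0286 with 4 against 4. Alternatives were another pseudocount, filter, scaling and gene set, limma-voom, blocks and each library left out. Replicates were separate mice.

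Named Wnt genes were those with an unadjusted p under 0.05 or no overlap, the 2 with the highest mean in each class, and Wnt4, Axin2, Lgr5, Rspo1 and Sfrp1; from the other lists, those past the adjusted threshold or else the 2 with the lowest p. Other genes given with values were chosen after their values were seen. 1 marker of the lists is not reported here and was left out of them. The genes, lists and tests were chosen with earlier results of these data known. Summed lists were those of basal, hormone-sensing, secretory, fibroblast and immune markers; sums of luminal epithelial (5370 to 6870 against 5260 to 7040), endothelial (70.1 to 80.5 against 50.2 to 78.4), pericyte (45.9 to 63.0 against 35.8 to 56.0) and adipocyte markers (77.6 to 120.0 against 98.7 to 130.0) overlapped between control and cKO. Fabp4 made up nearly all of the adipocyte sum; of the 3 tested adipocyte markers, Cidec was higher in cKO at 405% of control (limma adjusted p = 0.0377) and Adipoq was at 412% (limma adjusted p = 0.245), both having passed the filter only through their cKO libraries, which is no support for a difference, and of the 6 endothelial markers 2 were lower at an unadjusted p under 0.05. Whether counting used strand is not given in the sources used here; 9 of the 52 genes share exon bases with a gene on the opposite strand, none of which had over 12 reads in a library.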

Additional observations from a re-analysis of the deposited data

Results flagged for a closer look

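Among 118 groups of 4 libraries (the Wnt genes, the other named genes and depth), 8 had 1 library far from the 3 others, where chance gives about 1 in 20 groups, or 5.9. Wnt11 was at 3.69 FPKM in cKO 2 against 4.92 to 5.13 FPKM in the other cKO libraries. Gpc4 was at 20.4 FPKM in control 4 against 18.3 to 18.6 FPKM in the other controls. Celsr1 was at 0.753 FPKM in cKO 1 against 0.458 to 0.496 FPKM in the other cKO libraries. The depth of control 4 was 18778823 reads, and that of the other controls 16456480 to 16642619. The other 4 rest on 1 or 2 reads: Wnt16 at 0.0265 FPKM and Wnt8b at 0.0332 FPKM in control 2, and Wnt3a at 0.0216 FPKM and Rspo2 at 0.0234 FPKM in control 3.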

How the results depend on the processing

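The count of Wnt genes with an adjusted p under 0.05 was 0 in the main limma fit and 1, always Wif1, in limma-voom, in limma-voom with the replicate block, with protein-coding genes alone and with the set block (replicates 1 and 2 against 3 and 4), and 0 to 1 with 1 library left out (1 without cKO replicate 1). The count with an unadjusted p under 0.05 was 5 in the main fit (15.6% of those tested, beside 16.4% of all genes), 9 with the replicate block (28.1% beside 20.6%), 9 in limma-voom with the replicate block (28.1% beside 22.4%), 10 with the set block (31.2% beside 21.3%), 10 with no filter (20% beside 10.3%), 8 with protein-coding genes alone (25.0% beside 18.9%), 2 without both control 1 and control 3 (6.06% beside 10.2%), and 3 to 7 with 1 library left out (3 without cKO replicate 4, 9.68% beside 13.6%). Wif1 had an unadjusted p under 0.05 in all 20 alternatives, with log2 differences from -1.20 to -0.82 and adjusted p in limma from 0.0118 to 0.347. Wnt5b and Fzd7 did in 19 of 20, Fzd10 in 17 of 20 and Sfrp5 in 12 of the 19 that tested it. Over all genes the count past adjustment was 135 in the main fit, 50 with the replicate block, 442 with the set block, 252 in limma-voom, 680 in limma-voom with the replicate block, 266 with protein-coding genes alone, 10 with no filter, 2 without both control 1 and control 3, and 0 to 78 with 1 library left out (0 without control replicate 4). Of the other pathway genes, 1, Cd44, passed in limma-voom with the replicate block and with the set block. With 1 library left out, the log2 difference of Wnt4 ranged from -0.11 to 0.03, above 0 without cKO replicate 1 or control replicate 3 or 4, and that of Axin2 from -0.09 to 0.02, above 0 without cKO replicate 3. Axin2 was at 0.03 without both control 1 and control 3. Why these counts moved was not tested. Same-numbered control and cKO libraries share only a number: their deviations from the group means correlated over genes at 0.08 to 0.137, with pair 4 under 0.1, and control 2 correlated better with cKO 1 (0.178) than with cKO 2 (0.11). The set block was defined from such values, with different numbers inside a set at 0.087 to 0.178 and across sets at -0.21 to -0.072. Because deviations from a group mean cancel within the group, values above 0 inside sets bring values below 0 across them. The values across sets are therefore no separate evidence for the sets. Of the genes under 0.5 FPKM, several had only a few reads in a library, which limits what their values show.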
